A study of Mus musculus with 6 samples.

Results

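The genes described here are the chemokines, which are small secreted proteins that guide migrating cells, and the receptors that bind them. A gene was included when a probe set of the array named it alone and its symbol began with Ccl, Cxcl, Ccr, Cxcr or Ackr and a digit, with Cx3c, or with Xcl1. Each gene was read from the brightest of its probe sets, which is the one with the highest mean over the 6 arrays. This gave 55 genes, of which 34 encode ligands and 21 encode receptors, out of 19938 genes that can be read in the same way. The cells were C2C12, a mouse myoblast line that divides as single cells and fuses into myotubes when serum is withdrawn. One line, shPARP2, had received a lentivirus with a short hairpin RNA specific for PARP2, and the other line, scPARP2, had received a lentivirus with a scrambled hairpin, so both groups carried a lentiviral hairpin. PARP2 is a nuclear enzyme that attaches ADP-ribose chains to proteins. Each group was a single cell line held under puromycin to keep the hairpin, and no time after transduction is stated. Total RNA of 3 samples per line was hybridized to Affymetrix mouse gene arrays, with 1 array per sample. No source names the replicates as independent cultures, so the p-values cover only the spread from sample to sample within a line, and this may be technical.

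Chemokines are named after the spacing of the cysteines near the start of the protein, as in the CC, CXC, CX3C and XC groups, and their receptors carry the same letters. The receptors couple to inhibitory G proteins and turn a ligand gradient into directed movement, while the atypical receptors bind ligands without this coupling and remove or present them. Many ligand genes are switched on by NF-kB or by interferon. In muscle, myoblasts and resident cells release CC and CXC ligands after injury, which draw monocytes and neutrophils into the tissue, and the pair Cxcl12 and Cxcr4 guides migrating muscle precursors.

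Values are log2 hybridization signals, so a difference of 1 is a 2-fold change. Probe sets differ in how strongly they bind, and for this reason signals were tested only between the lines, while an order of genes by signal describes the probe sets and not the amount of RNA. Signals near the bottom of the scale carry little information, and the genes were therefore divided at the array median, which is the median over all probe sets of the mean signal and was 7.125. Of the 55 genes, 14 lay above this median and 41 at or below it. Parp2, the target of the hairpin, read 8.94, 9.13 and 9.05 in scPARP2 and 7.86, 8.14 and 7.91 in shPARP2 replicates 1, 2 and 3. The fit in limma gave a log2 fold change of -1.07 with a standard error (SE) of 0.10 and an adjusted p of 0.00103, and 47.6% of the signal was left. The medians of the 6 arrays were between 7.04 and 7.18. The median SD per probe set was 0.0753 in scPARP2 and 0.142 in shPARP2 cells. Of the myoblast markers, 9 of 10 were measured. All of these lay above the array median, from Pax7 only just above it at 7.16 to Chrna1, Des and Cdh15 as the brightest. In contrast, 2 of 15 measured leukocyte markers (Cd53 and Cd68) and 3 of 10 endothelial markers (Egfl7, Vwf and Cldn5) lay above it, and Ptprc, Itgam, Csf1r and Pecam1 did not.

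Among the chemokines and receptors, 2 genes were higher and 9 genes were lower in shPARP2 than in scPARP2 cells at an adjusted p under 0.05, and 44 did not pass. Of all probe sets, 18.5% passed, 9.41% as higher and 9.14% as lower. Ccl9, Ccl2, Cx3cl1, Cxcr4, Cxcl5, Ccl5 and Cxcl12 were the lower genes above the array median, and Ccl17 and Ackr4 were the lower genes beneath it. The 2 higher genes, Cxcl9 and Ccl8, both lay above it. Thus 9 of the 14 genes above the array median passed, where 32.0% of all probe sets above it did (16.4% higher, 15.6% lower). Of the 41 dim genes none was higher and 2 were lower, where 5.05% of all dim probe sets passed (2.39% higher, 2.65% lower). The arrays of the lines did not overlap for 17 of the 55 genes and for 35.9% of all probe sets. This was so for 12 of the 14 brighter genes, against 56.0% of probe sets above the median, and for 5 of the 41 dim genes, against 15.7% of dim probe sets. A change of at least 1.5-fold together with an adjusted p under 0.05 was found for 8 of the 55 genes, where 7.83% of all probe sets had both. Of these, 7 were among the 14 brighter genes (12.9% of probe sets above the median) and 1 was dim (2.72% of dim probe sets). Cxcl9, which counts in each of these numbers of brighter genes, lies above the median only through its shPARP2 arrays. The median log2 fold change was -0.51 over the 14 genes, -0.02 over the 41 genes and -0.02 over all probe sets on either side of the median. By role, 2 of 34 ligands were higher and 7 lower, while none of 21 receptors was higher and 2 were lower. The roles differ in signal, since 12 of the ligands and 2 of the receptors lay above the array median. Of these brighter genes, 2 ligands were higher and 6 lower, and 1 receptor was lower. Among the dim genes, 1 of 22 ligands and 1 of 19 receptors were lower. In bulk RNA of this kind, fewer cells that make a transcript and less of it per cell cannot be told apart. Leaving out any scPARP2 array lowered the background counts, from 3345 to between 1842 and 1961 higher and from 3249 to between 1761 and 1826 lower probe sets, while the same omissions left 2 higher and 7 lower chemokine and receptor genes.

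**Figure D1:**
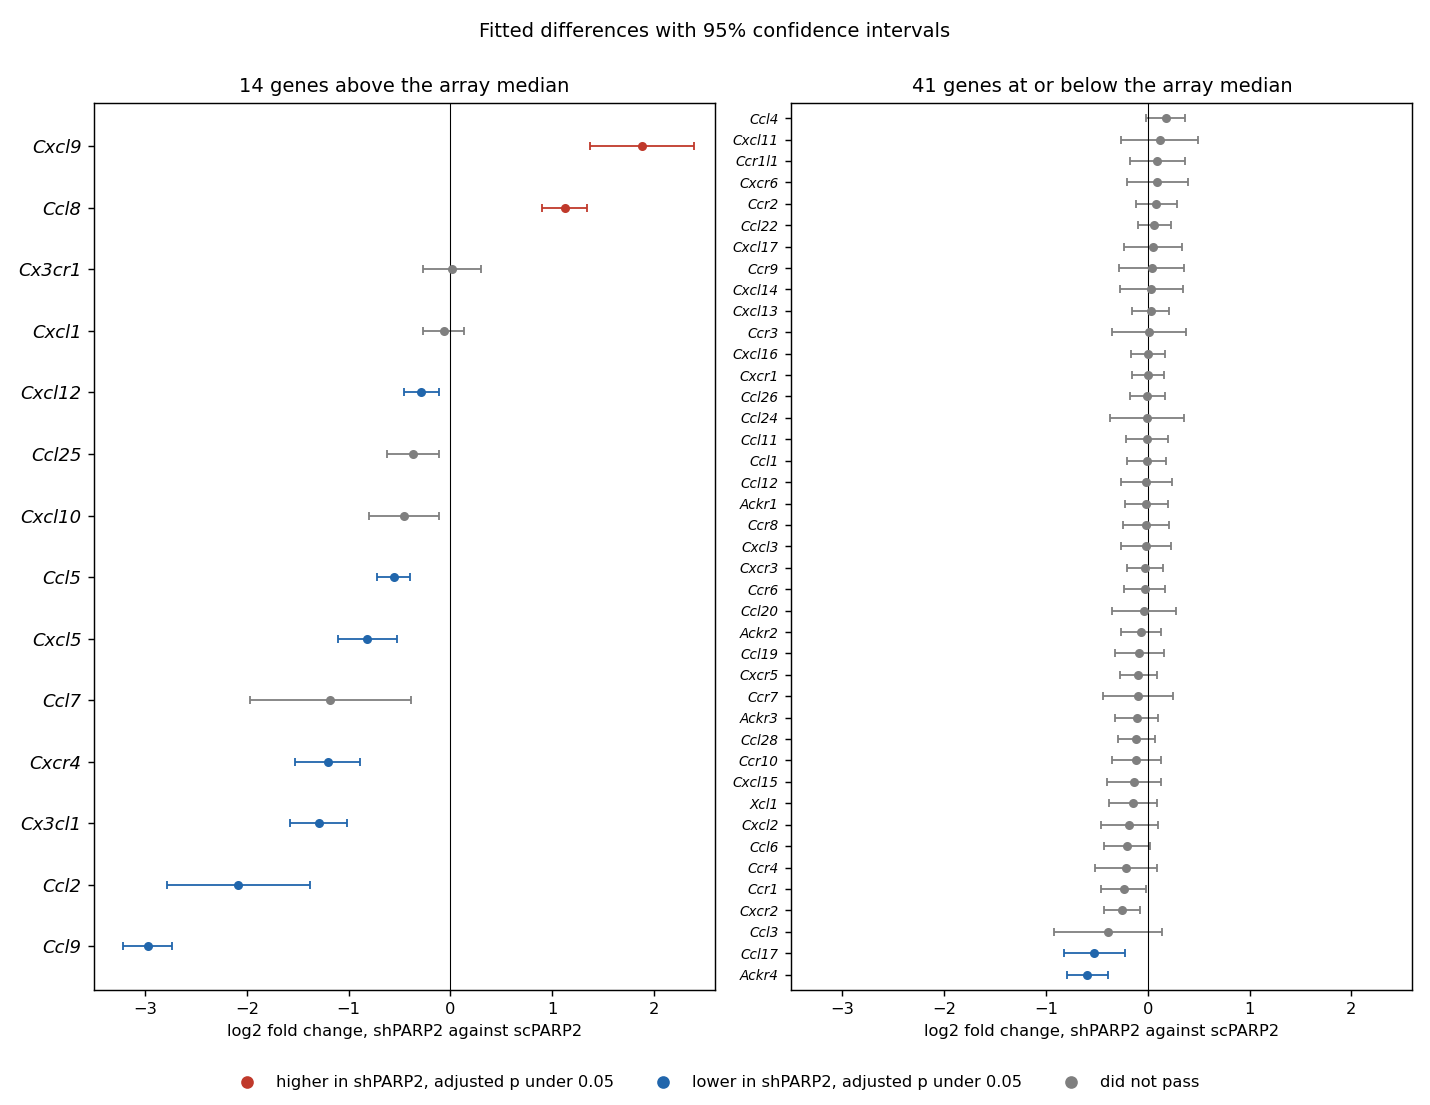
Log2 fold changes (shPARP2 against scPARP2) of the 14 genes above the array median (left) and the 41 genes at or below it (right), sorted by their value. Points are limma estimates from 3 arrays per line and bars are 95% confidence intervals. The brighter genes spread from -2.97 for Ccl9 to 1.88 for Cxcl9, and the dim genes stay between -0.59 for Ackr4 and 0.18 for Ccl4.

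**Figure D2:**
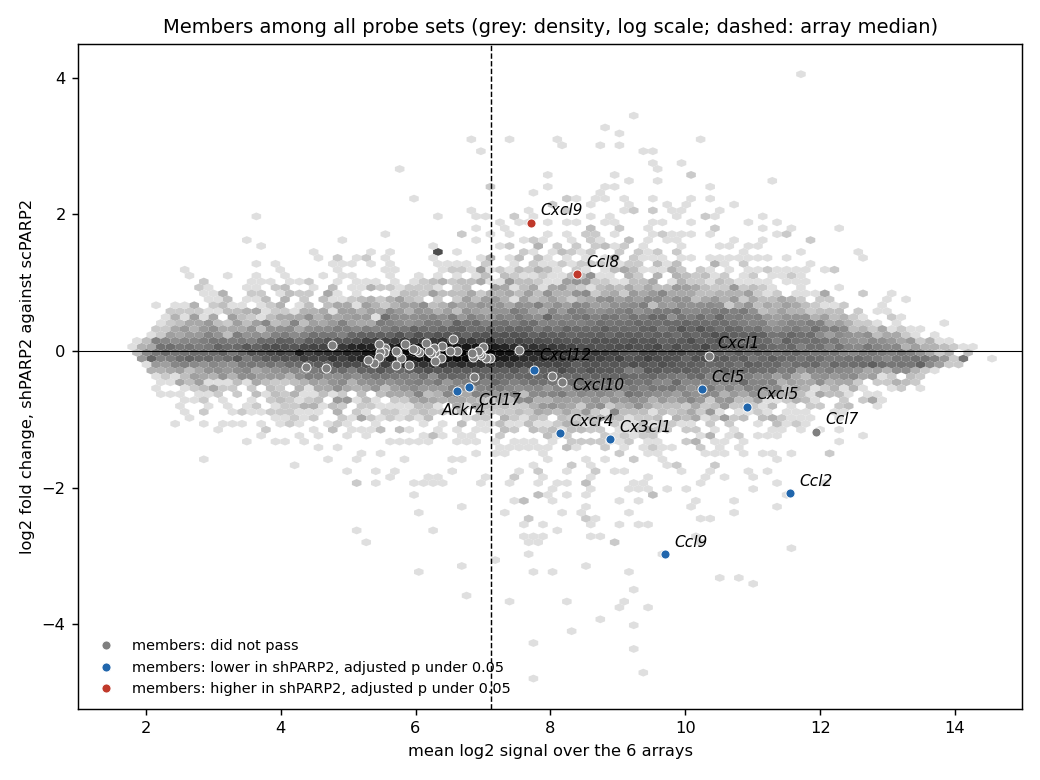
Mean log2 signal over the 6 arrays (horizontal) and log2 fold change (vertical) of the chemokines and receptors, over the density of all 35556 probe sets in grey. The dashed line is the array median of 7.125. Of these genes, Ccl9 (-2.97) and Ccl2 (-2.08) have the largest decreases and Cxcl9 (1.88) and Ccl8 (1.12) the largest increases. Some other genes changed more, such as Mmp13 (-4.37) and Hs3st1 (2.04).

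The bases before the start of 6 of these genes are printed because they belong to ligands that were lower (Ccl9, Cx3cl1), higher (Ccl8, Cxcl9) or did not pass (Cxcl10, Cxcl1). Each is the 150 bases before the annotated start, 5′ to 3′ on the strand of the gene, from the RefSeq promoters of GRCm38.p6. Capitals mark matches, on either strand, to the NF-kB consensus, the AP-1 site TGANTCA, the GAS element TTCNNNGAA, the interferon-stimulated response element, the antioxidant response element core TGACNNNGC, to which NRF2 binds, and the TATA box TATAAA.
Ccl9, chr11:83578637-83578786, minus strand: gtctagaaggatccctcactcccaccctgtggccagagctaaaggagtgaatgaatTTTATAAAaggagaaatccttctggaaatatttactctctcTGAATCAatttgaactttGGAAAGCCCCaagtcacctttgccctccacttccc
Cx3cl1, chr8:94772030-94772179, plus strand: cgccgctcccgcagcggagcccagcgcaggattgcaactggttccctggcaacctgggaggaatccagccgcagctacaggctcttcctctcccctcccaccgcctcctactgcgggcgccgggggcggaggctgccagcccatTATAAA
Ccl8, chr11:82115035-82115184, plus strand: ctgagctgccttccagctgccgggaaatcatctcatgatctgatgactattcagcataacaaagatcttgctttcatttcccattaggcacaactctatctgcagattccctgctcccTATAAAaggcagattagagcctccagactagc
Cxcl9, chr5:92328080-92328229, minus strand: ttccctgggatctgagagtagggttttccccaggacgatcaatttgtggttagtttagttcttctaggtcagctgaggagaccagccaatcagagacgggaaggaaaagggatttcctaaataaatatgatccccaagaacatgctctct
Cxcl10, chr5:92348890-92349039, minus strand: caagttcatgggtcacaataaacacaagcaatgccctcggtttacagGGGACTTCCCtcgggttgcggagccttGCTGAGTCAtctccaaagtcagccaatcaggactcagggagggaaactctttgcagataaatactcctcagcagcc
Cxcl1, chr5:90891095-90891244, plus strand: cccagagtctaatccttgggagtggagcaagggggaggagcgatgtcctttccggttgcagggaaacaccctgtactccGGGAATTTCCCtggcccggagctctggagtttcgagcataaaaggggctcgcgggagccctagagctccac

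A promoter was matched for 41 of the 55 genes and for 10 of the 14 brighter ones, in 43 windows of 250 bases. Of the brighter genes Ccl2, Ccl7, Ccl5 and Cxcl5 were not searched. The NF-kB consensus occurred in 9 of the 43 windows and in 3.90% of the 32851 windows of all genes. Among the brighter genes searched it stood before Ccl9, which was lower, and before Cxcl1 and Cxcl10, which did not pass. In Ccl9 it began 35 bases before the start, and an AP-1 match began at 53 bases. The capitals of Ccl9 further upstream hold TATAAA on both strands. In Cxcl1 the capitals hold 2 overlapping NF-kB matches, one on each strand, and in Cxcl10 an AP-1 match and an antioxidant response element core overlap. The window of Cxcl10 also held an interferon-stimulated response element at 213 bases and another NF-kB match at 159 bases, both outside the printed stretch. The letters of the TATA box were found in 13 of 43 windows and in 12.4% of all. Among the brighter genes they stood before both higher genes (Ccl8, and Cxcl9 at 195 bases, outside the printed stretch). They also stood before Ccl9, Cx3cl1 and Cxcr4, which were lower, and before Ccl25, which did not pass. In these genes the matches began between 6 bases (Cx3cl1) and 224 bases (Ccl9) before the start. The other motifs were in 4 windows (AP-1, 6.75% of all), 4 windows (GAS, 7.02%), 3 windows (interferon-stimulated response element, 2.98%) and 4 windows (antioxidant response element core, 10.2%). These letters describe the windows only.

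Among the CC ligands of the monocyte chemoattractant group, Ccl2 fell and Ccl8 rose. Ccl2, the ligand of Ccr2 and the main attractant of monocytes, read 12.59, 12.65 and 12.56 in scPARP2 and 10.75, 10.99 and 9.81 in shPARP2 replicates 1, 2 and 3 (probe set 10379511). All shPARP2 arrays lay below all scPARP2 arrays, and replicate 3 lay well below the other two shPARP2 arrays. The log2 fold change was -2.08 (SE 0.29, adjusted p = 0.00439), so that 23.6% of the signal was left. Ccl7, the neighbouring gene and another ligand of Ccr2, read 12.48, 12.58 and 12.52 in scPARP2 and 11.56, 11.92 and 10.55 in shPARP2 cells. Its arrays also did not overlap between the lines, but the log2 fold change of -1.18 (95% confidence interval -1.97 to -0.39) did not pass, with an adjusted p of 0.0533. The range between the 3 shPARP2 arrays was 1.37 for Ccl7 and 1.18 for Ccl2, which is at the 99.7th and 99.3rd percentile of all probe sets above the median. In scPARP2 cells the ranges of the same genes were 0.10 and 0.09. Without shPARP2 replicate 3 the change of Ccl7 was -0.79 (adjusted p = 0.0133), and without shPARP2 replicate 2 it was -1.47 (adjusted p = 0.0256), while the adjusted p was between 0.10 and 0.145 when any of the other 4 arrays was left out. Ccl8, a further member of the group, moved the other way. It read 7.74, 7.92 and 7.84 in scPARP2 and 8.92, 9.10 and 8.85 in shPARP2 cells, with no overlap. The log2 fold change was 1.12 (SE 0.09, adjusted p = 0.000650), which is 2.18-fold.

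**Figure D3:**
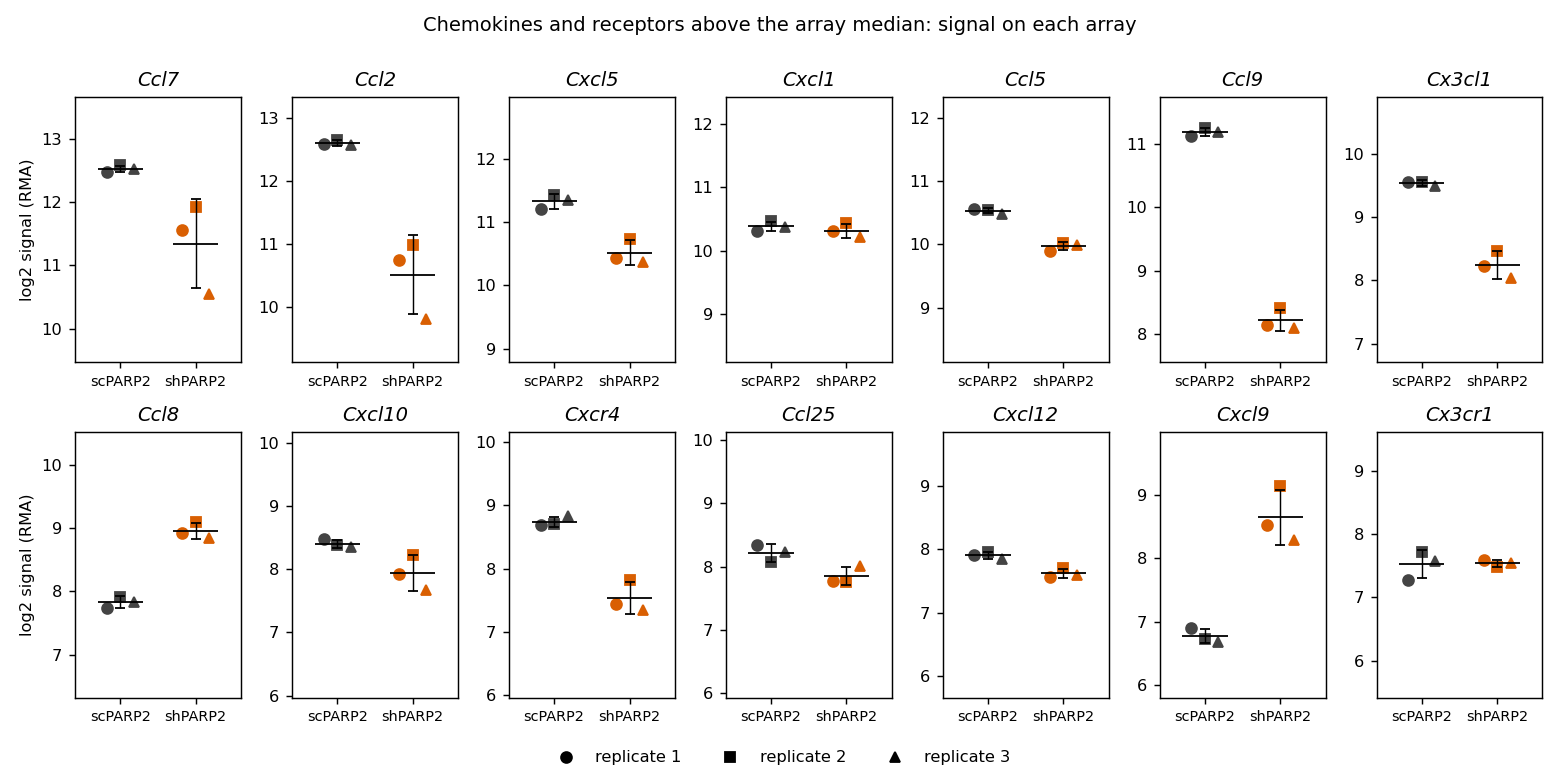
Log2 signal of the 14 genes above the array median on each of the 6 arrays, in order of mean signal. Symbols mark the replicate, horizontal lines the mean and bars the SD of 3 arrays, and every panel spans the same height in log2 units on its own range. The lines are apart in all panels but Cxcl1 and Cx3cr1, and shPARP2 replicate 3 is the lowest point for Ccl7 and Ccl2.

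Of the other CC ligands above the array median, Ccl9 and Ccl5 fell. Ccl9, a ligand of Ccr1 that attracts myeloid cells, had the largest change of the 55 genes. Its probe set (10389214) read 11.13, 11.25 and 11.19 in scPARP2 and 8.14, 8.40 and 8.10 in shPARP2 cells. The arrays of each line were close to each other and far from those of the other line. The log2 fold change of -2.97 (SE 0.10, adjusted p = 3.05e-05) is a 7.86-fold difference and leaves 12.7% of the signal. Ccl5, which attracts T cells and monocytes, read 10.56, 10.53 and 10.48 against 9.90, 10.02 and 9.99. This smaller change (-0.56, SE 0.07, adjusted p = 0.00260) also came without overlap between the lines. Ccl25, the ligand of Ccr9 that guides cells to thymus and gut, read 8.34, 8.07 and 8.24 against 7.77, 7.75 and 8.01. The arrays did not overlap, but the log2 fold change of -0.37 (95% confidence interval -0.63 to -0.11) did not pass, with an adjusted p of 0.0620. Without shPARP2 replicate 3 it was -0.45 (adjusted p = 0.0346), and without any of the other 5 arrays the adjusted p was between 0.0709 and 0.196. A second probe set of Ccl25 gave -0.29 (adjusted p = 0.155).

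Cxcl5 fell and Cxcl1 did not pass, although both are neutrophil attractants that act on Cxcr2. Cxcl5 read 11.20, 11.43 and 11.36 in scPARP2 and 10.44, 10.74 and 10.37 in shPARP2 cells. The lines were apart on all arrays, with a log2 fold change of -0.82 (SE 0.12, adjusted p = 0.00522). Cxcl1 read 10.31, 10.46 and 10.37 in scPARP2 and 10.30, 10.43 and 10.21 in shPARP2 cells. Here the lines overlapped, and the log2 fold change was -0.07 with a 95% confidence interval of -0.27 to 0.13 (adjusted p = 0.678). The remaining ligands of this receptor among the 55 genes, Cxcl2 and Cxcl3, were dim and gave -0.18 (adjusted p = 0.386) and -0.02 (adjusted p = 0.942).

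Of the ligands of Cxcr3, which are induced by interferon and draw activated T cells, Cxcl9 rose and its neighbours did not pass. Cxcl9 read 6.90, 6.73 and 6.68 in scPARP2 cells, which is beneath the array median, and 8.52, 9.14 and 8.30 in shPARP2 cells. All shPARP2 arrays were above all scPARP2 arrays, with replicate 2 the highest. The log2 fold change of 1.88 (SE 0.21, adjusted p = 0.00207) is 3.68-fold. Cxcl10 read 8.47, 8.38 and 8.35 in scPARP2 and 7.92, 8.23 and 7.67 in shPARP2 cells. Thus its values were lower on each shPARP2 array, where those of Cxcl9 were higher. Its log2 fold change was -0.46 (95% confidence interval -0.80 to -0.12) and did not pass (adjusted p = 0.0760), and without shPARP2 replicate 2 it was -0.61 (adjusted p = 0.0135). When any of the other 5 arrays was left out, the adjusted p of Cxcl10 was between 0.116 and 0.210. Cxcl11, the third ligand of this receptor, was dim and gave 0.12 (95% confidence interval -0.26 to 0.50, adjusted p = 0.704). Cxcr3 itself was dim, with -0.03 (adjusted p = 0.869).

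Cx3cl1 and Cxcr4 fell, while the receptor of the one and, in several settings, the ligand of the other did not pass. Cx3cl1, the membrane-bound ligand also called fractalkine, read 9.56, 9.56 and 9.49 in scPARP2 and 8.23, 8.46 and 8.03 in shPARP2 cells. The lines did not overlap, and the log2 fold change was -1.29 (SE 0.12, adjusted p = 0.000922), which leaves 40.8% of the signal. Its receptor Cx3cr1 read 7.28, 7.71 and 7.57 against 7.59, 7.48 and 7.55. These arrays overlapped, with a log2 fold change of 0.02 (95% confidence interval -0.27 to 0.30, adjusted p = 0.954). Cxcr4, the receptor of Cxcl12, read 8.70, 8.70 and 8.83 in scPARP2 and 7.44, 7.82 and 7.35 in shPARP2 cells. Every shPARP2 array was below every scPARP2 array, with a log2 fold change of -1.21 (SE 0.13, adjusted p = 0.00186) and 43.3% of the signal left. Cxcl12 read 7.91, 7.96 and 7.85 against 7.57, 7.70 and 7.59. Its change of -0.29 (SE 0.07, adjusted p = 0.0361) came without overlap and was the smallest among the genes that passed. It no longer passed without scPARP2 replicate 1, 2 or 3 or without shPARP2 replicate 1 or 3, with values between -0.26 and -0.31 and adjusted p between 0.0711 and 0.145. It did not pass after centring of each array on its median either (-0.27, adjusted p = 0.111). Ackr3, the atypical receptor for Cxcl12, was dim and gave -0.11 (adjusted p = 0.498).

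The 41 dim genes hold 22 ligands and 19 receptors, and 2 of them passed. Ackr4, an atypical receptor that takes up Ccl19 and Ccl25, read 6.88, 6.94 and 6.90 in scPARP2 and 6.46, 6.22 and 6.26 in shPARP2 cells. The lines were apart, and the log2 fold change was -0.59 (SE 0.08, adjusted p = 0.00444). Ccl17, a ligand of Ccr4, read 7.08, 6.95 and 7.15 against 6.59, 6.30 and 6.72. Its change of -0.52 (SE 0.12, adjusted p = 0.0303) no longer passed without scPARP2 replicate 1, 2 or 3 or without shPARP2 replicate 1, with values between -0.48 and -0.58 and adjusted p between 0.0632 and 0.113. Both genes were beneath the array median in both lines on average. The dim genes closest to the median were Ccr10 (mean signal 7.10), Ccr7 (7.05) and Cxcl17 (7.00). Their changes were -0.11, -0.10 and 0.05, with adjusted p of 0.541, 0.736 and 0.843. Because dim signals carry little information, the intervals of dim genes bound the change in signal and not the change in RNA. For 38 of the 39 dim genes that did not pass, the 95% confidence interval lay within 1.5-fold in either direction. The exception was Ccl3, a ligand of Ccr1, at -0.39 with an interval of -0.92 to 0.14. It read 7.19, 6.92 and 7.10 in scPARP2 and 6.65, 7.15 and 6.25 in shPARP2 cells, so that shPARP2 replicate 2 lay among the scPARP2 arrays and the other two beneath them.

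The rest of the dim genes did not pass, with adjusted p between 0.0647 and 0.989. They were the CC ligands Ccl1, Ccl4, Ccl6, Ccl11, Ccl12, Ccl19, Ccl20, Ccl22, Ccl24, Ccl26 and Ccl28, the CXC ligands Cxcl13, Cxcl14, Cxcl15 and Cxcl16, Xcl1, the receptors Ccr1, Ccr1l1, Ccr2, Ccr3, Ccr4, Ccr6, Ccr8, Ccr9, Cxcr1, Cxcr2, Cxcr5 and Cxcr6, and the atypical receptors Ackr1 and Ackr2, besides those named above. All 10 CC receptors were dim, and their changes lay between -0.23 and 0.10. Among them are a receptor of Ccl2 (Ccr2), a receptor of Ccl9 and Ccl5 (Ccr1) and the receptor of Ccl17 (Ccr4). Of the dim genes that did not pass, the arrays did not overlap for Ccl4 (0.18), Cxcr2 (-0.25) and Ccr1 (-0.23), with adjusted p of 0.194, 0.0647 and 0.145. Ccl19 is covered by 5 probe sets that name it alone, with changes between -0.10 and -0.08. Probe sets of this gene may share sequence with its near-identical copies, and 2 of them hold identical values, so its signal is uncertain.

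**Figure D4:**
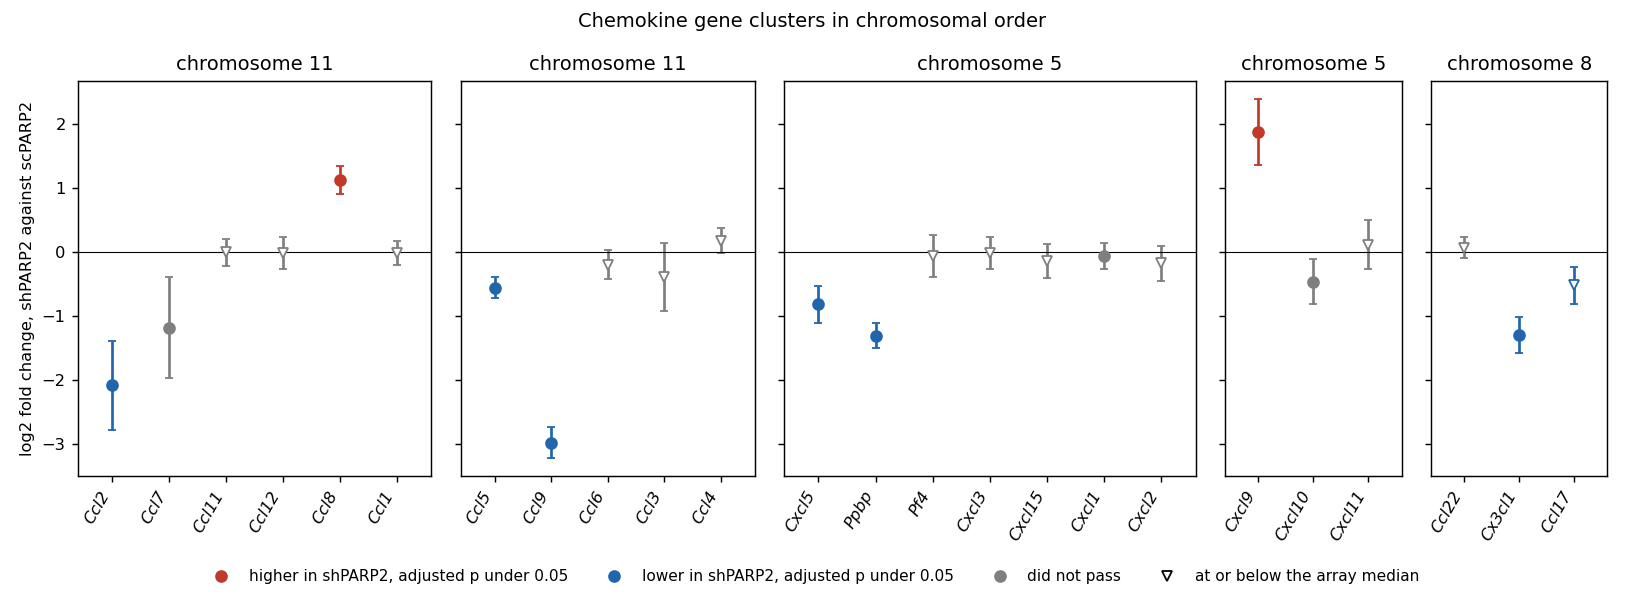
Log2 fold changes (shPARP2 against scPARP2) of neighbouring chemokine genes in the order of RefSeq GRCm38.p6, one panel per chromosomal cluster, evenly spaced and not to genomic scale. Only clusters with a gene past the test are drawn, so the receptor genes of chromosome 9 are not shown. Bars are 95% confidence intervals, filled symbols lie above the array median and open triangles at or below it. Within single clusters, changes of both signs stand beside genes with changes near 0.

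Chemokine genes lie in clusters, and the changes were compared along them. In the chromosome 11 cluster of Ccl2, Ccl7, Ccl11, Ccl12, Ccl8 and Ccl1, Ccl2 fell (-2.08) and Ccl8 rose (1.12). Between them, Ccl7 gave -1.18 and did not pass, and the dim genes Ccl11 and Ccl12 both gave -0.01. A second cluster of chromosome 11 holds Ccl5, Ccl9, Ccl6, Ccl3 and Ccl4. There Ccl5 and Ccl9 fell and the 3 dim genes did not pass. In the chromosome 5 cluster from Cxcl5 to Cxcl2, Cxcl5 fell together with its neighbour Ppbp. Ppbp encodes a further Cxcr2 ligand whose symbol falls outside the rule. It gave 7.88 ± 0.07 in scPARP2 and 6.57 ± 0.10 in shPARP2 cells (SD, n = 3 for each), with a log2 fold change of -1.30 (SE 0.08, adjusted p = 0.000264). At the other end of the cluster Cxcl1 gave -0.07. On chromosome 8 Cx3cl1 and Ccl17 fell beside Ccl22, which gave 0.07 (adjusted p = 0.607). None of the 7 receptor genes that neighbour each other on chromosome 9, Xcr1 among them, passed.

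Among the genes above the array median, the shPARP2 arrays often came in the same order, and among the dim genes they did not keep it. Replicate 2 had the highest shPARP2 signal for 12 of the 14 genes above the median, while it was highest for 42.7% of all probe sets above it. Replicate 3 had the lowest for 10 of the 14, against 30.7% of probe sets. The array weights, which limma sets lower for more deviant arrays, were 0.29 for shPARP2 replicate 2 and 0.40 for replicate 3. The other arrays had weights between 1.42 and 2.30. For the 9 brighter genes past the test, replicate 2 was highest for all 9, which places it nearest to scPARP2 for the 7 lower genes and farthest from it for Cxcl9 and Ccl8. Replicate 2 was also the lowest shPARP2 array for 26 of the 41 dim genes, and for 56.3% of all dim probe sets. The scPARP2 array of the same number was the highest of its line for 9 of the 14 genes (39.9% of probe sets above the median) and the lowest for 21 of the 41 dim genes (38.0% of dim probe sets). Without shPARP2 replicate 2, 12 chemokine and receptor genes were lower and 2 were higher. The same omission raised the counts over all probe sets, from 3249 to 3782 lower and from 3345 to 3449 higher.

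Of a list of 33 NF-kB signalling genes, 27 were measured, 25 of them above the array median. Of the 27, 5 were higher, 4 lower and 18 did not pass, where 16.4% of all probe sets above the median were higher and 15.6% lower. All genes that passed were among the 25 brighter ones, and the shares of higher and lower genes are close to those of the background. Rel, a subunit of NF-kB, rose from 9.03 ± 0.04 to 9.86 ± 0.22 (SD, n = 3), a log2 fold change of 0.82 (SE 0.12, adjusted p = 0.00488). Ikbkg, the regulatory subunit of the kinase complex that releases NF-kB, fell by 1.05 on the log2 scale (SE 0.07, adjusted p = 0.000336). Traf6, an adaptor of the interleukin-1 and Toll-like receptor pathways, gave 0.45 (adjusted p = 0.00901), and the tumour necrosis factor receptor Tnfrsf1b gave -0.53 (adjusted p = 0.00913). The median log2 fold change of the list was 0.09, against -0.02 over all probe sets. The number of higher genes was 2 without scPARP2 replicate 1, 2 or 3 or shPARP2 replicate 1, and 3 without shPARP2 replicate 2 or 3.

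Of the genes that act downstream of chemokine receptors, 38 of 40 were measured, 30 of them above the array median, with 8 higher, 6 lower and 24 that did not pass. The 8 higher and 6 lower genes were all among these 30. Of all probe sets above the median, 16.4% were higher and 15.6% lower, and of dim ones 2.39% were higher and 2.65% lower. Tiam1 counts as above the median, although its scPARP2 mean of 7.07 lay beneath it. The same holds for Plcb1 with its shPARP2 mean of 6.69. Elmo1 and Tiam1, which help to activate Rac in moving cells, rose by 2.04 (SE 0.07, adjusted p = 3.62e-05) and 1.55 (SE 0.09, adjusted p = 0.000196) on the log2 scale. Plcb1, a phospholipase that receptors activate through G proteins, fell by 2.13 (SE 0.09, adjusted p = 7.46e-05), and the arrestin Arrb1, which takes receptors off the surface, fell by 0.93 (SE 0.12, adjusted p = 0.00339). Elmo1 read 8.74 ± 0.01 in scPARP2 and 10.77 ± 0.09 in shPARP2 cells, and Plcb1 read 8.82 ± 0.07 and 6.69 ± 0.14 (SD, n = 3 in each). The median log2 fold change of the list was 0.06. Without scPARP2 replicate 3 the higher genes numbered 5, and without scPARP2 replicate 1, 2 or 3 the lower ones numbered 3.

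Of 32 genes for the proteases that cut chemokines and for the heparan sulfate that holds them in the matrix, 31 were measured, 22 of them above the array median, with 7 higher, 6 lower and 18 that did not pass. The 7 higher and 6 lower genes were all among these 22. The background above the median was 16.4% higher and 15.6% lower, and that of dim probe sets 2.39% higher and 2.65% lower. Mmp13 counts as above the median, although its shPARP2 mean lay beneath it. Mmp13, a collagenase, read 11.43 ± 0.02 in scPARP2 and 7.06 ± 0.18 in shPARP2 cells (SD, n = 3 for each), a log2 fold change of -4.37 (SE 0.10, adjusted p = 1.90e-05). In contrast Mmp2, a gelatinase, rose by 1.42 (SE 0.07, adjusted p = 0.000102). Anpep, an aminopeptidase, fell by 1.52 (adjusted p = 0.00103), and Hs3st1, which adds sulfate to heparan chains, rose by 2.04 (adjusted p = 0.00166). The median log2 fold change of the list was -0.05.

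A further 11 relatives of the chemokines have symbols outside the rule and were read separately, 6 of them above the array median. Among these 6, Ppbp had a shPARP2 mean of 6.57, which is beneath the median. Of the 11, 1 was higher, 3 were lower and 7 did not pass, where 32.0% of all probe sets above the median and 5.05% of dim ones passed. Besides Ppbp, the lower ones were the cytokine Mif (-0.46, SE 0.11, adjusted p = 0.0264) and its receptor chain Cd74 (-0.27, SE 0.06, adjusted p = 0.0225). Neither passed after centring of each array (adjusted p = 0.0681 and 0.0592) or without scPARP2 replicate 1, 2 or 3 or shPARP2 replicate 1 (adjusted p between 0.0565 and 0.107). The orphan receptor Gpr35 rose from 7.27 ± 0.02 to 8.08 ± 0.13 (SD, n = 3), a log2 fold change of 0.81 (SE 0.08, adjusted p = 0.00153). Cklf (-0.14, adjusted p = 0.566) and Pitpnm3 (-0.07, adjusted p = 0.751) also lay above the median and did not pass.

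Cell type markers were read on the same arrays, where 32.0% of all probe sets above the median and 5.05% of dim ones passed. Of the leukocyte markers Cd68 fell (-0.72, adjusted p = 0.00119) and Cd53 rose (0.33, adjusted p = 0.0457), and 13 did not pass. The summed linear signal of the 15 leukocyte markers ran from 1497 to 1558 in scPARP2 and from 1376 to 1543 in shPARP2 cells. For the 10 endothelial markers, none of which passed (limma; the lowest adjusted p was 0.105), it ran from 1115 to 1161 and from 1011 to 1187. The 9 myoblast markers summed to between 13090 and 13680 in scPARP2 and to between 14670 and 18410 in shPARP2 cells, with 5 higher (Myf5, Myog, Des, Cdh15 and Chrna1) and 2 lower (Musk and Mef2c). Of these, Mef2c had a shPARP2 mean of 6.70, which is beneath the array median. The part of these shifts in the chemokine values was not tested.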

How the data were processed

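The deposited table holds log2 values of 35556 probe sets on 6 arrays, 3 per line, which the submitters' processing notes credit to RMA. Its version and array library are not given in the sources used. Every column matched a sample label. Of the probe sets, 21789 name 1 gene in the platform annotation, 1621 name several and 12146 are unnamed here. The deposited log2 values entered a linear model without covariates (lmFit and eBayes of limma 3.58.1, run in R 4.3.3). P-values were adjusted over all probe sets by the Benjamini-Hochberg method, and genes were called at an adjusted p under 0.05. The fit was also run on simulated data with the same SD in both lines, so that run did not test their unequal spread. Arrays give no read depth, and 3 arrays per line limit the precision. The genes and lists were chosen with earlier results of these data known. Named are all genes above the array median, the dim ones past the test, the 3 dim ones nearest to the median, and up to 4 genes per pathway list with the largest change past the test, besides relatives above the median. Of the markers, those past the test and the 3 brightest myoblast and endothelial ones are named. Lyz2, Pax7, Ptprc, Itgam, Csf1r and Pecam1 were named outside this rule. Coro1a, the leukocyte marker next in signal after Cd53 and Cd68, was dim. Gene names come from the platform annotation and gene order from RefSeq GRCm38.p6. Motifs were searched with Python 3.11.15 and pandas 2.3.3, and figures drawn with matplotlib 3.10.9. Alternatives were quantile normalization, centring, leaving out probe sets under the 40th percentile, a robust variance with trend, weights per array, a replicate block, a 1.5-fold limit, averaging the probe sets of a gene and leaving out each array.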

Additional observations from a re-analysis of the deposited data

How the results depend on the processing

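The 2 higher chemokine genes (3 with array weights) and the 9 lower ones (6 to 12) stayed within 1.5 times their number in all alternatives. Ccl9, Ccl2, Cx3cl1, Cxcr4, Cxcl5, Ccl5, Ackr4, Cxcl9 and Ccl8 kept an adjusted p under 0.05 in each fit that held them, the highest being 0.0285 (Cxcl5). Ackr4 lies under the 40th percentile and was not in the fit without dim probe sets. Calls of Cxcl12, Ccl17, Ccl7, Cxcl10, Ccl25, Mif and Cd74 changed; the cause was not tested. Leaving out each array gave 2 higher and 7 to 12 lower chemokine genes, 1842 to 3449 higher and 1761 to 3782 lower probe sets, 2 to 3 higher and 3 to 6 lower NF-kB genes, 5 to 9 higher and 3 to 7 lower receptor signalling genes, 6 to 8 higher and 6 lower cleavage genes, and -1.16 to -1.01 for Parp2. Same-numbered samples did not deviate together (r = -0.05, 0.09 and 0.01), so the numbers were not taken as pairs. With the replicate block, 2455 probe sets were higher and 2338 lower, 8 chemokine genes were lower, 2 NF-kB genes were higher, 3 receptor signalling genes were lower, and Cxcl12 (adjusted p = 0.0787), Mif (0.0523) and Cd74 (0.0863) no longer passed. Centring split the probe sets into 3320 higher and 2512 lower and left 3 higher NF-kB genes. Leaving out dim probe sets gave 7 lower NF-kB genes, and array weights gave 8 of these and 4941 lower probe sets. A limit of 1.5-fold left 1 higher and 1 lower NF-kB gene and 5 higher and 3 lower receptor signalling genes. Ccl7 passed with dim probe sets left out (adjusted p = 0.0273), a trended robust variance (0.0350) and array weights (0.0101). Cxcl10 passed with dim probe sets left out (0.0389) and with weights (0.0115). Ccl25 passed with centring (0.0472), with dim probe sets left out (0.0298) and with weights (0.0239). Values near 0 changed sign: over the fits that leave out 1 array, Cx3cr1 ran from -0.10 to 0.11, Ccr7 from -0.22 to 0.011, Cxcl17 from -0.045 to 0.14 and Pitpnm3 from -0.13 to 0.043. With array weights Ccr7 was 0.038 and Pitpnm3 0.014.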

Other observations

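Chemokines also appear on 7 probe sets that name several genes and were therefore left out of the 55. Of these, 4 name the Ccl21 family, which attracts cells that carry Ccr7, and hold identical values, with a mean log2 signal of 6.58, a log2 fold change of -0.04 and an adjusted p of 0.826. The other 3 name the Ccl27 family, ligands of Ccr10, and lie above the array median at mean signals of 7.25, 7.25 and 7.58. Their log2 fold changes were -0.07 for the dimmer pair, which hold identical values, and -0.04 for the brightest, with adjusted p of 0.762 and 0.856. None of these probe sets can be tied to 1 gene of its family.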
